A study of Mus musculus with 16 samples.

Results

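Myc and 9 growth genes of activated T cells were followed in tumor-infiltrating lymphocytes (TILs). They are Slc7a5, Slc3a2, Slc1a5, Slc38a1, Slc38a2, Slc7a1 and Slc7a6, which encode subunits of amino acid transporters, Tfrc, which encodes the transferrin receptor, and Odc1, which encodes ornithine decarboxylase. They were taken by gene name from the count table, where all 10 were found among 55450 genes, and all 10 passed the filter on low counts in every comparison. CD4+ and CD8+ TILs came from tumors that B16F10 cells, a melanoma line of the mouse, formed s.c. in wild-type (WT) C57BL/6J mice or in Sirt2-/- mice (B6.129-Sirt2tm1.1Fwa/J), which lack the NAD-dependent deacetylase SIRT2 in all tissues, T cells and tumor stroma alike. Neither genotype received a further treatment, and the methods give mice of 7 to 8 weeks with controls matched for age and sex. Each of the 4 groups had 4 libraries (16 in all) of stranded, ribosomal RNA-depleted total RNA, and the labels do not say whether the CD4+ and CD8+ libraries of the same number came from the same tumor.

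MYC is a transcription factor that T cells induce after antigen encounter and that raises the expression of genes for ribosome assembly, nutrient uptake and biosynthesis. SLC7A5 and SLC3A2 together form the exchanger LAT1–CD98, which brings in leucine and other large neutral amino acids, and SLC7A6 is another light chain that pairs with SLC3A2. SLC1A5, SLC38A1 and SLC38A2 carry glutamine and other small neutral amino acids, SLC7A1 carries arginine and lysine, the transferrin receptor brings in iron, and ornithine decarboxylase makes putrescine, the first polyamine. Myc, Odc1, Tfrc and several of the transporter genes are widely used as readouts of growth in activated T cells.

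Odc1 and Slc7a1 passed the test between CD8+ and CD4+ TILs in both genotypes with all libraries, Odc1 lower and Slc7a1 higher in CD8+ TILs, and their promoters are shown for that reason. The sequences are from RefSeq on GRCm38.p6 and run from 250 bases before the transcription start to 50 after it, with the GC box in capitals where it occurs, as GGGCGG or, on the opposite strand, as CCGCCC.
Odc1 (chr12:17544623-17544922, plus strand): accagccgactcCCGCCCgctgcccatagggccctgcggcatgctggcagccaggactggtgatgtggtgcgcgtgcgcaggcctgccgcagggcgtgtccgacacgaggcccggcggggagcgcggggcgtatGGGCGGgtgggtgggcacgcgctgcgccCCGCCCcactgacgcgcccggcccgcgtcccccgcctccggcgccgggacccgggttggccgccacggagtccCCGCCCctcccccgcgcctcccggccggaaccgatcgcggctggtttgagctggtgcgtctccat
Slc7a1 (chr5:148399855-148400154, minus strand): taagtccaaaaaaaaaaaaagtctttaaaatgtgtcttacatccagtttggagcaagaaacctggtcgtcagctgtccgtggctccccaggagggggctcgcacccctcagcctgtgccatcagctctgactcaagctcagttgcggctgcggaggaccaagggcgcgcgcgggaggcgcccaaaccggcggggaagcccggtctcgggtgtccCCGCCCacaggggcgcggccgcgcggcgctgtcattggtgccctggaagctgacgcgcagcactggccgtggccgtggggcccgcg
The Odc1 window held 4 GC boxes and the Slc7a1 window 1. The table held 9 windows for 6 of the 10 genes (Slc3a2, Slc38a2, Slc7a1, Slc7a6, Tfrc and Odc1). None of the 9 held the E-box CACGTG or the C/EBP–ATF element TGATGNAA, which occur on either strand in 7.15% and 3.97% of all 32851 promoter windows of this length. GGGCGG occurs in 35.66% of them, and TATAAA, found here in 1 window, a second one of Slc7a1, in 13.62%. A match or its absence describes these letters only.

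By GENCODE M21 on GRCm38, Myc lies at chr15:61985391-61990374 on the plus strand, and the paralogs Slc38a1 (chr15:96571418-96642913) and Slc38a2 (chr15:96687392-96699730) both lie on the minus strand of the same chromosome. The other genes are on separate chromosomes except Slc7a5 (chr8:121881150-121907694) and Slc7a6 (chr8:106168857-106198706). Slc1a5 (chr7:16781340-16798274) lies on chromosome 7, as does Sirt2. Slc7a5 overlaps an antisense gene, Gm20388, and Odc1 a gene on its own strand, Gm22748. The strand setting of the counting is not given in the sources used here, so reads of these overlaps cannot be assigned with certainty.

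Total counts per library ranged from 28000949 to 62407851. At least 1 count was found on 17730 to 22138 genes in 13 libraries, but on 8169 genes in Sirt2-/- CD4+ replicate 4, 12587 in replicate 1 of WT CD4+ and 14411 in replicate 1 of WT CD8+ TILs, so results are given with all libraries and, where the call or size differs, without these 3, called low-detection libraries here. Sirt2 had 1196 to 2272 counts in WT libraries and 0 to 553 in Sirt2-/- libraries. Defining markers followed the labels: Cd4 measured 384 to 620.2 CPM in CD4+ libraries and 0 to 4.93 CPM in CD8+ libraries, and Cd8a 1004 to 1261 CPM in CD8+ and 0.033 to 33.4 CPM in CD4+ libraries. Cd8b1 measured 447.6 to 784.8 CPM in CD8+ and 11.5 to 60.8 CPM in CD4+ libraries, the highest of these in Sirt2-/- CD4+ replicate 4. CPM, the usual depth-scaled count, takes library sizes adjusted by the trimmed mean of M values (TMM) over the 16 libraries. The summed level of 9 melanoma markers was 11.8 to 129.7 CPM in WT CD4+, 17.8 to 81.5 CPM in Sirt2-/- CD4+, 6.74 to 14.5 CPM in WT CD8+ and 10.6 to 29.2 CPM in Sirt2-/- CD8+ libraries, with 0 to 7 of the 9 markers at 0 in a library.

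Odc1 was the most abundant of the 10 genes per length in every group. Its level, in CPM per kb of exon, averaged 198 ± 32.4 (SD, n = 4) in WT CD4+, 237 ± 92.8 in Sirt2-/- CD4+, 72.8 ± 16.3 in WT CD8+ and 83.1 ± 10.7 in Sirt2-/- CD8+ TILs. The gene in second place differed between the cell types. In CD4+ TILs it was Slc3a2, at 26.3 ± 6.10 CPM per kb in WT and 19.9 ± 8.75 in Sirt2-/-, and Slc38a2 followed at 18.2 ± 2.82 and 17.7 ± 5.48. In CD8+ TILs Myc stood second, at 51.4 ± 3.37 CPM per kb in WT and 45.0 ± 3.64 in Sirt2-/-, clear of Slc3a2, the next gene, at 21.1 ± 4.94 and 23.8 ± 3.36. In WT CD8+ TILs, the range of Myc overlapped that of Odc1, because 1 of the 4 Odc1 values, 49.8 CPM per kb in replicate 1, lay within it, whereas in the other 3 groups Odc1 did not overlap the next gene. Slc7a6 and Slc7a1 were the lowest in CD4+ TILs, at 3.54 to 5.77 CPM per kb on average, and Slc7a6 alone was lowest in CD8+ TILs, at 6.07 ± 0.98 in WT and 6.32 ± 0.81 in Sirt2-/-. Between these ends most neighbors in the order overlapped, among them Slc3a2, Slc38a2, Slc1a5 and Slc7a5 in CD8+ TILs of either genotype. Myc lay clear of Slc38a1, the next gene in WT CD4+ TILs.

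**Figure D1:**
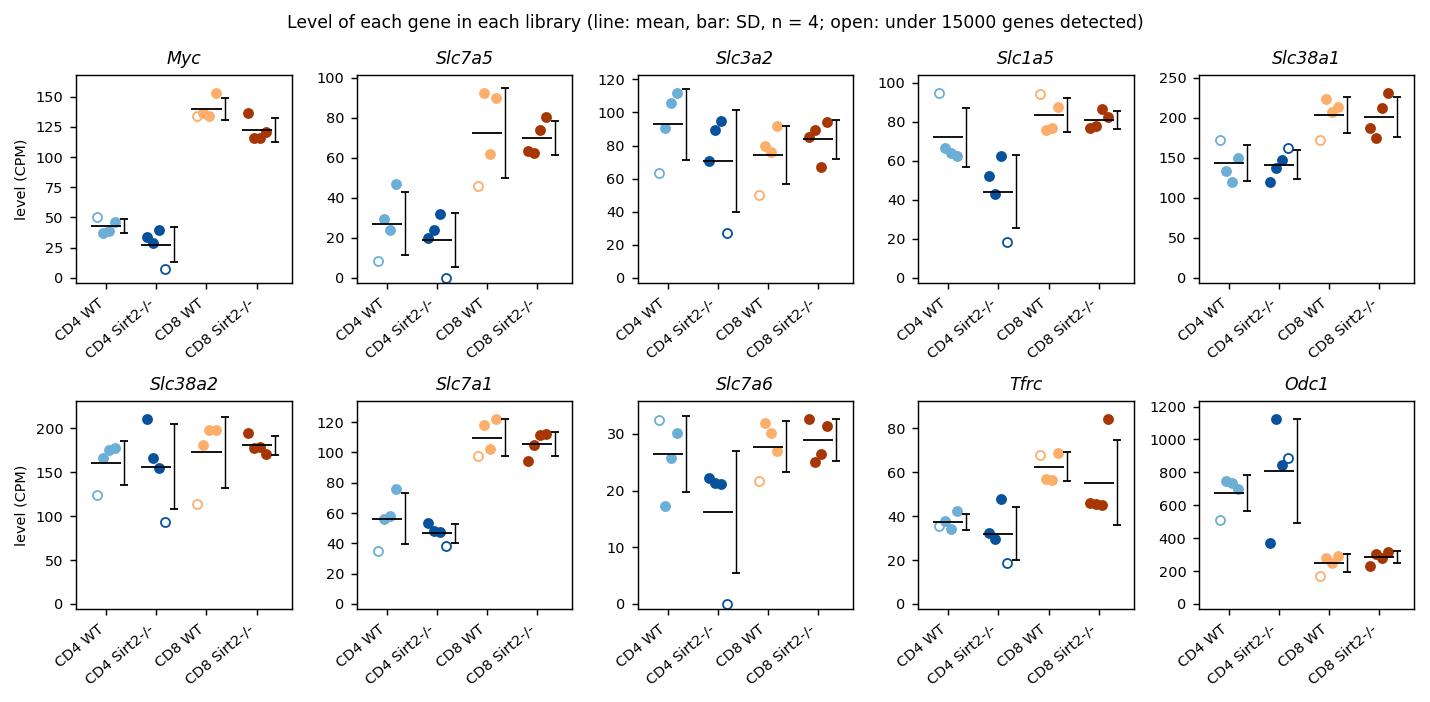
Level in CPM (vertical axis, linear, from 0) of each of the 10 genes in each library of the 4 groups; lines are means and bars SDs (n = 4), and open circles are the 3 libraries with under 15000 genes detected. Myc and Slc7a1 are higher in every CD8+ than in every CD4+ library and Odc1 is lower, while the genotypes lie side by side within each cell type.

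To compare the cell types, CD8+ and CD4+ TILs were first set against each other in WT mice. Myc was at 134, 137, 134 and 153 CPM in CD8+ replicates 1 to 4 and at 50.1, 37.3, 38.5 and 45.8 CPM in CD4+ replicates 1 to 4. The lowest CD8+ library thus lay well above the highest CD4+ library. The log2 fold change was 1.63 ± 0.14 (standard error, SE), with an adjusted p of 4.49e-05 by edgeR's quasi-likelihood test with Benjamini–Hochberg adjustment over 14892 genes, the test used for every adjusted p below unless another is named. Odc1 moved the other way, at 169, 280.04, 249 and 293 CPM in CD8+ libraries and at 509.8, 745, 735 and 702 CPM in CD4+ libraries. Its groups did not overlap either, and its log2 fold change was −1.52 ± 0.19 (adjusted p = 0.00055). In WT CD8+ TILs the Odc1 level was thus 2.86-fold lower and the Myc level 3.10-fold higher than in WT CD4+ TILs.

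Slc7a1, the arginine and lysine transporter gene, measured 97.3, 118, 102 and 122 CPM in WT CD8+ libraries against 35.2, 55.9, 58.3 and 76.0 CPM in WT CD4+ libraries, without overlap. Its log2 fold change was 0.88 ± 0.22 (adjusted p = 0.023). Tfrc measured 67.9, 57.0, 56.5 and 68.9 CPM in CD8+ libraries and 35.4, 37.7, 34.1 and 42.5 CPM in CD4+ libraries, again without overlap, with a log2 fold change of 0.67 ± 0.16 (adjusted p = 0.0188), and it was not called in 1 model of all 16 libraries (0.74 ± 0.28, adjusted p = 0.172). In all, 3 of the 10 genes were called higher, where 4.89% of all genes tested were, and 1 was called lower, where 6.96% were. The same 3 and 1 were those whose groups did not overlap, which held for 12.6% of all genes in the higher and 10% in the lower direction. In WT TILs the calls of Myc and Odc1 held whichever single library was left out. Without WT CD4+ replicate 3 or WT CD8+ replicate 4 those of Slc7a1 and Tfrc were both lost, which left 2 calls, and that of Slc7a1 was also lost without WT CD4+ replicate 2 or WT CD8+ replicate 3.

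The gene for the leucine transporter, Slc7a5, was not called in WT TILs, and its CD4+ libraries spread widely. It measured 45.8, 92.4, 61.8 and 90.1 CPM in CD8+ and 8.31, 29.4, 23.6 and 46.8 CPM in CD4+ libraries, with 1 CD4+ library just above the lowest CD8+ library (log2 fold change 1.34 ± 0.43, adjusted p = 0.071). Slc38a1, a glutamine transporter gene, measured 171 to 223 CPM in CD8+ and 119 to 172 CPM in CD4+ libraries (0.44 ± 0.14, adjusted p = 0.060). Both were called without WT CD4+ replicate 1 and WT CD8+ replicate 1, both low-detection libraries, at 1.29 ± 0.24 (adjusted p = 0.0028) for Slc7a5 and 0.67 ± 0.11 (adjusted p = 0.0012) for Slc38a1. DESeq2 on all 8 libraries called both as well (adjusted p = 0.0061 and 0.0198).

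The remaining 4 genes were called neither with all libraries nor without the low-detection ones in WT TILs. Slc3a2, the heavy chain partner of Slc7a5, had a log2 fold change of −0.40 ± 0.23 (adjusted p = 0.32), Slc1a5 of 0.15 ± 0.16 (adjusted p = 0.64), Slc38a2 of 0.03 ± 0.20 (adjusted p = 0.96) and Slc7a6 of 0.0033 ± 0.24 (adjusted p = 0.997). With limma-voom Slc3a2 was called lower (−0.38 ± 0.12, adjusted p = 0.024). The signs of Slc38a2 and Slc7a6 turned when certain single libraries were left out, from −0.04 to 0.24 and from −0.15 to 0.18. In bulk samples, fewer cells of a type and less RNA per cell cannot be told apart, so a level here is an average over the cells of a library.

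The same comparison in Sirt2-/- TILs called 2 of the 10 genes, Slc7a1 higher and Odc1 lower in CD8+ TILs. Myc measured 137, 115, 116 and 121 CPM in CD8+ replicates 1 to 4 and 33.5, 29.1, 39.7 and 6.82 CPM in CD4+ replicates 1 to 4. Every CD8+ library was above every CD4+ library, and CD4+ replicate 4, with the fewest genes detected, was the lowest of all. The log2 fold change was 2.14 ± 0.47, and Myc was not called (adjusted p = 0.060). Without that replicate Myc was called, at 1.81 ± 0.13 (adjusted p = 1.2e-05), and with DESeq2 on all 8 libraries (adjusted p = 0.00147) and in 1 model of all 16 libraries (adjusted p = 0.00106) too.

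Slc7a1 measured 94.3, 105, 111 and 112 CPM in CD8+ and 53.3, 48.0, 47.6 and 38.3 CPM in CD4+ libraries, a log2 fold change of 1.16 ± 0.16 (adjusted p = 0.0096). Odc1 measured 232, 304, 282 and 314 CPM in CD8+ and 368, 1122, 847 and 885 CPM in CD4+ libraries, a log2 fold change of −1.52 ± 0.30 (adjusted p = 0.042). Neither overlapped between cell types, although Odc1 in CD4+ replicate 1 stood closer to the CD8+ libraries than to the other CD4+ libraries. Of all genes tested, 0.918% were called higher and 1.32% lower. The number called changed with single libraries: 6 genes were called without CD4+ replicate 4, 5 of them higher, where 13.8% of all genes were called higher and 11.6% lower, 1 without CD4+ replicate 2 or 3 or without CD8+ replicate 1, and 0 without CD8+ replicate 2, 3 or 4.

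Slc7a5 and Slc7a6 had 0 counts in Sirt2-/- CD4+ replicate 4. By counting error alone this allows up to 3 of its 62407851 counts, a bound on the sequenced reads and not on the level in the cells. In the other 3 CD4+ libraries Slc7a5 was at 19.9, 24.0 and 31.8 CPM, and in the 4 CD8+ libraries at 63.6, 62.3, 73.9 and 80.2 CPM. With all libraries it was not called (log2 fold change 1.87 ± 1.30, adjusted p = 0.76), and without replicate 4 it was called at 1.44 ± 0.17 (adjusted p = 0.000181). Slc7a6 was at 22.2, 21.3 and 21.2 CPM in those 3 CD4+ libraries and at 25.0 to 32.6 CPM in CD8+ libraries, and it was not called with or without replicate 4 (0.81 ± 1.35 and 0.39 ± 0.14, adjusted p = 0.998 and 0.060).

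Slc1a5 measured 76.8, 77.9, 86.4 and 82.6 CPM in Sirt2-/- CD8+ and 52.0, 43.2, 62.5 and 18.5 CPM in CD4+ libraries (0.86 ± 0.34, adjusted p = 0.34). Slc38a1 measured 175 to 231 CPM in CD8+ and 119 to 163 CPM in CD4+ libraries (0.50 ± 0.14, adjusted p = 0.135). Both were without overlap and were called without replicate 4, at 0.59 ± 0.13 (adjusted p = 0.0060) and 0.55 ± 0.12 (adjusted p = 0.0066). In all, 6 genes were higher and 1 lower in CD8+ TILs without overlap, which held for 16% and 6.22% of all genes. Tfrc, Slc3a2 and Slc38a2 overlapped and were not called (adjusted p = 0.47, 0.998 and 0.97). Over all genes tested the median log2 fold change was 0.16 in Sirt2-/- TILs with all libraries, and −0.0042 without replicate 4.

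**Figure D2:**
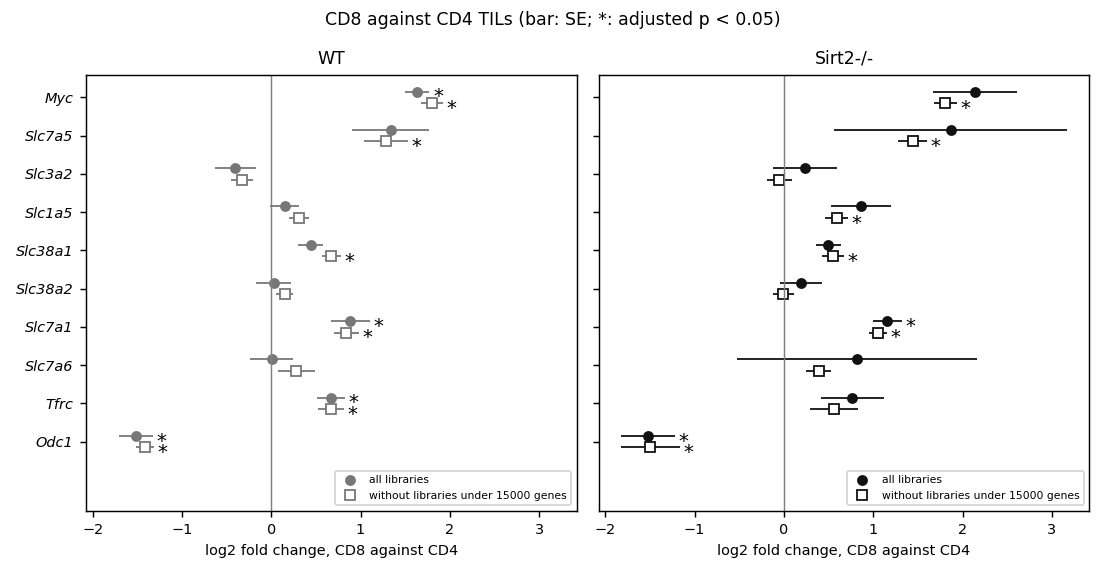
Log2 fold change of CD8+ against CD4+ TILs (horizontal axis) for each of the 10 genes in WT (left) and Sirt2-/- (right) mice, with SE bars; filled circles use all libraries, open squares leave out those with under 15000 genes detected, and asterisks mark an adjusted p under 0.05. Odc1 is the 1 called gene below 0, at −1.52 in both genotypes, and the bars of the Sirt2-/- genes other than Odc1 shorten without CD4+ replicate 4.

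Markers of other cells moved with the cell type too. The highest melanoma sums were those of WT CD4+ replicate 1 and Sirt2-/- CD4+ replicate 4. Of 5 melanoma genes tested in WT, 0 had a log2 fold change above 0 (median −2.48). Gpnmb among them was called lower in CD8+ TILs (−2.57 ± 0.51, adjusted p = 0.0071). Without the low-detection libraries the WT median was −0.70. In Sirt2-/- TILs 4 of 8 tested were above 0 (median 0.02), and 0 were called. The sum of 8 stromal and endothelial markers was 95.0 to 116 CPM in WT CD4+ against 36.2 to 48.6 CPM in WT CD8+ libraries, and 64.5 to 181 against 40.5 to 109.8 CPM in Sirt2-/- libraries. Most of the sum in WT was 1 gene, Pecam1, an adhesion molecule gene that T cells can also express, with means of 103 CPM in CD4+ and 39.6 CPM in CD8+ TILs (−1.46 ± 0.16, adjusted p = 0.00023), while 3 to 6 of the 8 markers were at 0 in a WT CD4+ library. The sum of 4 NK cell markers was higher in every CD8+ than in every CD4+ library, at 28.4 to 37.7 against 0 to 8.09 CPM in WT and 17.7 to 45.4 against 0.018 to 16.3 CPM in Sirt2-/- TILs. Most of the WT CD8+ sum was again 1 gene, the lectin-like receptor gene Klre1. It was called higher in WT CD8+ TILs, at 25.1 against 1.12 CPM on average (4.38 ± 0.88, adjusted p = 0.0081). Of the 4 NK genes tested in WT, 3 had a log2 fold change above 0, and the lowest was −0.57. In Sirt2-/- TILs 2 of 3 tested were above 0, the lowest was −0.40, and 0 were called. Which cells held these transcripts was not tested. B cell markers stayed at or under 12.5 CPM and erythroid markers at or under 9.31 CPM in every library. Proliferation genes differed as well. Their summed level over 14 genes was 770 to 1264 CPM in WT CD4+ and 1355 to 2522 CPM in WT CD8+ libraries, and 512 to 1273 CPM in Sirt2-/- CD4+ and 1327 to 2277 CPM in Sirt2-/- CD8+ libraries, without overlap in either genotype, and 7 of 14 were called higher in WT, among them Bub1, Mcm2 and Mcm5 (1.68 ± 0.40, 1.66 ± 0.40 and 1.55 ± 0.28). Pcna, 1 of 14, was called higher in Sirt2-/- TILs (0.98 ± 0.18), and it was also among the 7 called in WT (0.88 ± 0.17). Over all genes tested, 4.89% were called higher in WT and 0.918% in Sirt2-/- TILs. The part of these cells and of cell division in the differences was not tested.

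The chains of the leucine transporter differed in their balance between cell types. The log2 ratio of Slc7a5 to Slc3a2 counts, with 0.5 added to each, needs no scaling between libraries. It was −0.13, 0.22, −0.30 and −0.02 in WT CD8+ and −2.93, −1.63, −2.16 and −1.26 in WT CD4+ libraries, and −0.42, −0.52, 0.14 and −0.23 in Sirt2-/- CD8+ libraries. In Sirt2-/- CD4+ replicates 1 to 3 it was −1.82, −1.90 and −1.57, and replicate 4 had no Slc7a5 count beside 1498 of Slc3a2. In both genotypes every CD8+ ratio was above every CD4+ ratio (two-sided p = 0.029 by an exact permutation test, where 4 libraries against 4 cannot go lower; adjusted over 8 ratio tests, p = 0.114 in each). The mean difference in WT was 1.94, and 1.65 without the low-detection libraries. It was 1.51 in Sirt2-/- TILs without CD4+ replicate 4.

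The paralogs Slc38a1 and Slc38a2 were closer to each other. Their log2 ratio averaged 0.27 in WT CD8+ and −0.16 in WT CD4+ libraries (exact permutation test, two-sided, p = 0.143) and 0.15 and −0.09 in Sirt2-/- libraries (exact permutation test, two-sided, p = 0.543). Without the low-detection libraries, the CD8+ ratios lay above the CD4+ ratios in both genotypes, by 0.53 in WT (two-sided p = 0.1 by an exact permutation test, where 3 against 3 cannot go lower) and by 0.54 in Sirt2-/- TILs (p = 0.029 by the same exact test, where 4 against 3 cannot go lower; adjusted over 8 ratio tests, p = 0.2 in WT and 0.114 in Sirt2-/- TILs). The 3 low-detection libraries all had more Slc38a1 than Slc38a2. So did WT CD8+ replicates 2 to 4 (log2 ratios 0.31, 0.06 and 0.11) and Sirt2-/- CD8+ replicates 3 and 4 (0.25 and 0.44). The remaining libraries had less.

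**Figure D3:**
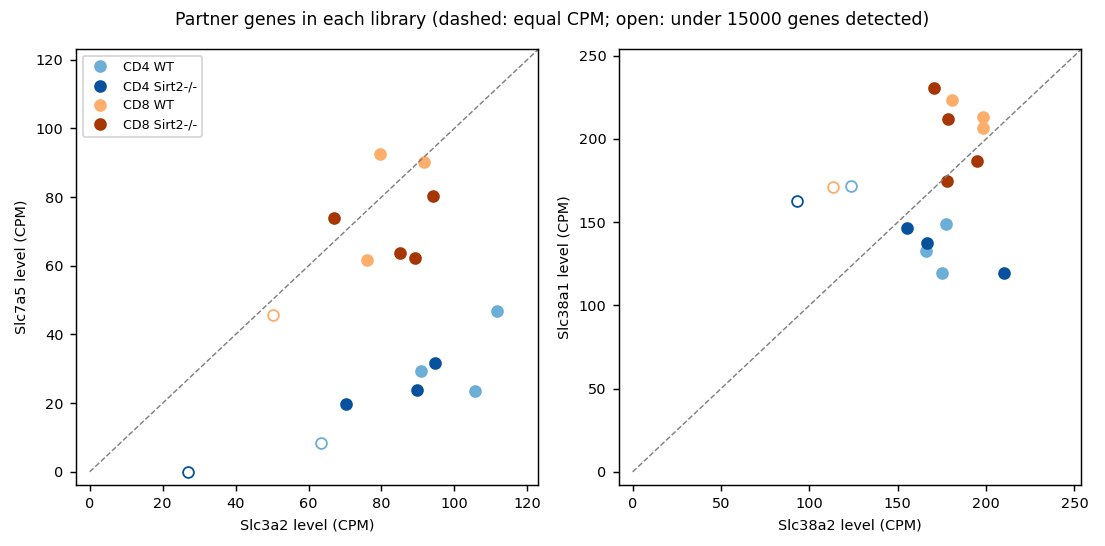
CPM of Slc7a5 against Slc3a2 (left) and of Slc38a1 against Slc38a2 (right) in each of the 16 libraries, colored by group, with equal CPM dashed and the 3 libraries with under 15000 genes detected open. CD8+ libraries lie near the dashed line for Slc7a5 and Slc3a2, and CD4+ libraries lie below it.

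The genotype was compared next, since the study asked how SIRT2 sets T cell receptor signaling, in TILs among other T cells. From gene set enrichment of genes upregulated in Sirt2-/- CD4+ and CD8+ TILs, the paper reported higher pathways downstream of the receptor. That measure differs from the calls per gene given here. In CD8+ TILs Myc averaged 122 ± 9.90 CPM (SD, n = 4) in Sirt2-/- and 140 ± 9.17 CPM in WT mice, a log2 fold change of −0.19 ± 0.09 (adjusted p = 0.99). The ranges overlapped, since Sirt2-/- replicate 1, at 137 CPM, lay above 2 of the WT libraries. None of the 10 genes was called in CD8+ TILs, and 0 had an unadjusted p under 0.05. Of all 15302 genes 1 was called (0.00654%) and 579 had an unadjusted p under 0.05. DESeq2 called 28 genes and limma-voom 4, none of them among the 10. The fitted differences were small, from −0.19 for Myc to 0.19 for Odc1 (SE 0.16), with a median of −0.03. Slc7a5 had −0.05 ± 0.20, Slc3a2 0.18 ± 0.17, Slc1a5 −0.05 ± 0.10, Slc38a1 −0.02 ± 0.12, Slc38a2 0.06 ± 0.16, Slc7a1 −0.06 ± 0.11 and Slc7a6 0.06 ± 0.16. None of the 10 was without overlap between genotypes, which held for 2.95% of all genes tested. The sum of 11 myeloid markers was higher in every Sirt2-/- CD8+ library than in every WT CD8+ library, at 9.69 to 39.6 against 2.24 to 9.17 CPM. Its part in these values was not tested.

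Tfrc in Sirt2-/- CD8+ TILs was at 46.2, 45.5 and 45.2 CPM in replicates 1 to 3, below all 4 WT libraries, and at 84.1 CPM in replicate 4, above all of them. The log2 fold change of the group was −0.18 ± 0.20, and −0.46 without replicate 4, still not called. Replicate 4 also had the highest melanoma sum of its group, 29.2 CPM against 10.6 to 12.2, and the highest myeloid sum, 39.6 CPM against 9.69 to 17.0. Their part in the Tfrc value was not tested.

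In CD4+ TILs 9 of the 10 genes had a fitted log2 fold change below 0 with all libraries, and 0 were called. Of all 15070 genes tested, 6328 had a value above 0. Without the 2 low-detection libraries, 3 of the 10 genes were above 0. Myc averaged 27.3 ± 14.3 CPM in Sirt2-/- and 42.9 ± 6.08 CPM in WT mice (−0.64 ± 0.50, adjusted p = 0.9999). Without the 2 low-detection libraries its means were 34.1 and 40.5 CPM and its log2 fold change −0.24 ± 0.17 (adjusted p = 0.99). Slc1a5 was the 1 gene without overlap, at 52.0, 43.2, 62.5 and 18.5 CPM in Sirt2-/- and 94.8, 66.7, 63.8 and 62.7 CPM in WT libraries, against 3.13% of all genes. Its log2 fold change was −0.69 ± 0.36 (adjusted p = 0.9999), the highest Sirt2-/- value lay just under the lowest WT value, and without the low-detection libraries it was −0.29 ± 0.15 (adjusted p = 0.99). Without them Slc7a1 was at −0.35 ± 0.15, with an unadjusted p of 0.042 (adjusted p = 0.99). The sum of Cd8a and Cd8b1 was 22.2 to 74.9 CPM in Sirt2-/- CD4+ and 14.0 to 24.9 CPM in WT CD4+ libraries. Its part in these values was not tested.

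Odc1 was the 1 gene with a positive value in CD4+ TILs with all libraries, 806 ± 316 CPM in Sirt2-/- and 673 ± 110 CPM in WT mice (0.26 ± 0.30, adjusted p = 0.9999). The other transporter genes and Tfrc had overlapping libraries, with −0.51 ± 1.34 for Slc7a5, −0.39 ± 0.37 for Slc3a2, −0.27 ± 0.30 for Slc7a1, −0.69 ± 1.30 for Slc7a6 and −0.21 ± 0.38 for Tfrc. Slc38a1 and Slc38a2 differed by −0.01 ± 0.17 and −0.03 ± 0.26, and their signs turned without the low-detection libraries. Of all 15070 genes 0% were called by edgeR, and 190 had an unadjusted p under 0.05, none of them among the 10. DESeq2 called 7 genes and limma-voom 4, none of them among the 10. The median over all genes was −0.11 with all libraries and −0.0016 without the 2 libraries, beside medians over the 10 genes of −0.33 and −0.21.

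**Figure D4:**
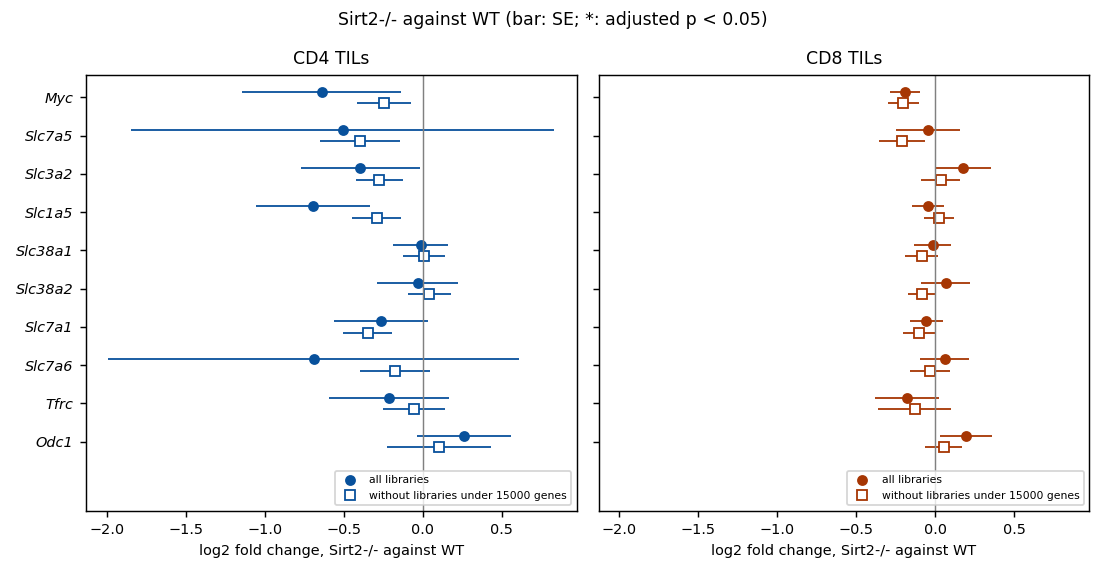
Log2 fold change of Sirt2-/- against WT (horizontal axis) for each of the 10 genes in CD4+ (left) and CD8+ (right) TILs, with SE bars; filled circles use all libraries and open squares leave out those with under 15000 genes detected. No gene was called in either cell type, and the widest bars are those of Slc7a5 and Slc7a6 in CD4+ TILs, which have 0 counts in Sirt2-/- replicate 4.

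A difference between CD8+ and CD4+ TILs in the effect of genotype was tested over the 16 libraries. Of the 10 genes 0 were called by edgeR, and 0 had an unadjusted p under 0.05, where 0% of all 17270 genes were called and 342 had an unadjusted p under 0.05. DESeq2 called 2 genes of all and limma-voom 0, none of them among the 10. The values ranged from −0.07 ± 0.36 for Odc1 to 0.77 ± 1.31 for Slc7a6, and Slc1a5, at 0.66 ± 0.38, had the smallest unadjusted p of the 10, 0.098. Myc had 0.46 ± 0.47, and 0.04 ± 0.17 without the 3 low-detection libraries.

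Other genes of these pathways were followed in the comparison of CD8+ with CD4+ TILs. The counts of each list below stand beside the shares of all genes tested that edgeR called with all libraries. These were 4.89% higher and 6.96% lower in WT, and 0.918% higher and 1.32% lower in Sirt2-/- TILs. Among 28 genes of ribosome assembly and growth known as targets of MYC, 19 were called higher and 0 lower in WT, with a median log2 fold change of 1.08 beside −0.02 over all genes tested. Rrp12 (1.85 ± 0.47), Gnl3 (1.63 ± 0.24) and Nop58 (1.56 ± 0.23), which take part in ribosome assembly, had the largest changes. In Sirt2-/- TILs 9 were called higher and 0 lower, with a median of 1.18 beside 0.16, led by Mybbp1a (1.64 ± 0.21), Fbl (1.64 ± 0.15) and Nolc1 (1.29 ± 0.12). Without the low-detection libraries 25 of the 28 were called higher in each genotype, and 1, Nampt, was called lower in Sirt2-/- TILs (−0.45 ± 0.13).

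The network of MYC partners and antagonists had calls lower and 0 higher by edgeR with all libraries. Of its 10 genes tested in WT TILs, Mxi1, Mxd1 and Mxd4, which encode proteins that compete with MYC for MAX, were called lower in CD8+ TILs (−1.67 ± 0.25, −1.57 ± 0.24 and −1.38 ± 0.17), and 0 were called higher. Mxd1 was also called lower in Sirt2-/- TILs (−1.61 ± 0.28), where DESeq2 called Mxd1 and Mxi1 lower and 1 gene, Mycn, higher (adjusted p = 0.0142). The medians of the list were −0.10 and −0.02, and without the low-detection library 2 were called higher and 3 lower in Sirt2-/- TILs.

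Among polyamine genes other than Odc1, 2 of 12 tested were called higher and 2 lower in WT CD8+ TILs. Srm, which encodes spermidine synthase and acts after ornithine decarboxylase, was higher (1.77 ± 0.34, 31.8 against 8.92 CPM). Smox, which encodes spermine oxidase, was lower (−2.70 ± 0.31, 4.67 against 28.9 CPM), and so was Oaz2, an antizyme that restrains ornithine decarboxylase (−1.42 ± 0.23). Eif5a was called higher in both genotypes (0.77 ± 0.20 in WT and 1.04 ± 0.11 in Sirt2-/- TILs). It encodes the one protein known to carry hypusine, a residue made from spermidine. In Sirt2-/- TILs 0 of 13 were called lower by edgeR, while DESeq2 called Oaz2 lower (−1.28 ± 0.17).

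Other amino acid transporters were mostly not called, as were most of all genes tested. Of 14 tested in WT TILs 1 was called, Slc43a2, a transporter of large neutral amino acids, which was lower in CD8+ TILs (−0.73 ± 0.13), and the median was −0.53. This 1 call is close to the share of all genes called lower, 6.96%. Of 17 tested in Sirt2-/- TILs 0 were called by edgeR, 3 had an unadjusted p under 0.05, and DESeq2 called 1 higher, the taurine transporter gene Slc6a6 (0.38 ± 0.11). Iron genes other than Tfrc gave 0 calls by edgeR in 11 tested in either genotype, with 2 and 1 at an unadjusted p under 0.05, and DESeq2 called 1 in WT, Slc11a2 (0.92 ± 0.34), and 0 in Sirt2-/- TILs. Among mTORC1 and amino acid sensing genes 4 of 28 were called lower in WT, led by Rragd (−1.83 ± 0.41), Castor2 (−1.37 ± 0.31) and Sesn1 (−0.92 ± 0.22), of which Rragd encodes a Rag GTPase and Castor2 and Sesn1 encode inhibitors of the pathway. Sesn3 was called lower in Sirt2-/- TILs (−0.86 ± 0.14).

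The list of amino acid response genes under ATF4 gave 1 call higher, Shmt2, a mitochondrial enzyme of one-carbon metabolism (1.25 ± 0.16), and 2 lower, Cebpb and Aldh18a1 (−2.0 ± 0.54 and −0.53 ± 0.14), of 17 tested in WT, and 0 of 17 by edgeR in Sirt2-/- TILs, where 0 had an unadjusted p under 0.05 and DESeq2 called 0. Genes of glutamine use gave 0 calls higher and 2 lower of 13 in WT, Idh1 and Got1 (−1.45 ± 0.40 and −1.35 ± 0.18), and 1 lower, Got1 (−1.78 ± 0.31), in Sirt2-/- TILs, where DESeq2 also called Got2 higher (0.53 ± 0.18). Over all genes tested, edgeR called 4.89% higher and 6.96% lower in WT, and 0.918% higher and 1.32% lower in Sirt2-/- TILs. Without the low-detection libraries more genes of each of these lists were called, and so were more of all genes tested, 14.9% higher and 13.1% lower in WT and 13.8% higher and 11.6% lower in Sirt2-/- TILs. In WT TILs, 4 polyamine genes were then higher and 3 lower, 2 transporter genes higher and 2 lower, 1 iron gene higher and 0 lower, 2 mTORC1 genes higher and 6 lower, 4 ATF4 genes higher and 5 lower, and 2 glutamine genes higher and 3 lower. The same lists in Sirt2-/- TILs gave 4 and 3, 1 and 3, 2 and 0, 3 and 6, 4 and 1, and 2 and 3. Proliferation genes were then called higher in 12 of 14 in WT and 11 of 14 in Sirt2-/- TILs.

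In the comparison of genotypes 0 genes of all these lists were called by edgeR in CD4+ or CD8+ TILs. DESeq2 also called 0, while 0 to 2 genes of a pathway list had an unadjusted p under 0.05. Of the 28 growth genes, 5 were above 0 in CD8+ TILs (median −0.08) and 11 in CD4+ TILs (−0.16). Without low-detection libraries these were 1 (−0.15) and 9 (−0.13). Of the 14 proliferation genes, 6 were above 0 in CD8+ (−0.03) and 2 in CD4+ TILs (−0.35). Without low-detection libraries these were 2 (−0.11) and 0 (−0.40). These counts were not tested.

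**Figure D5:**
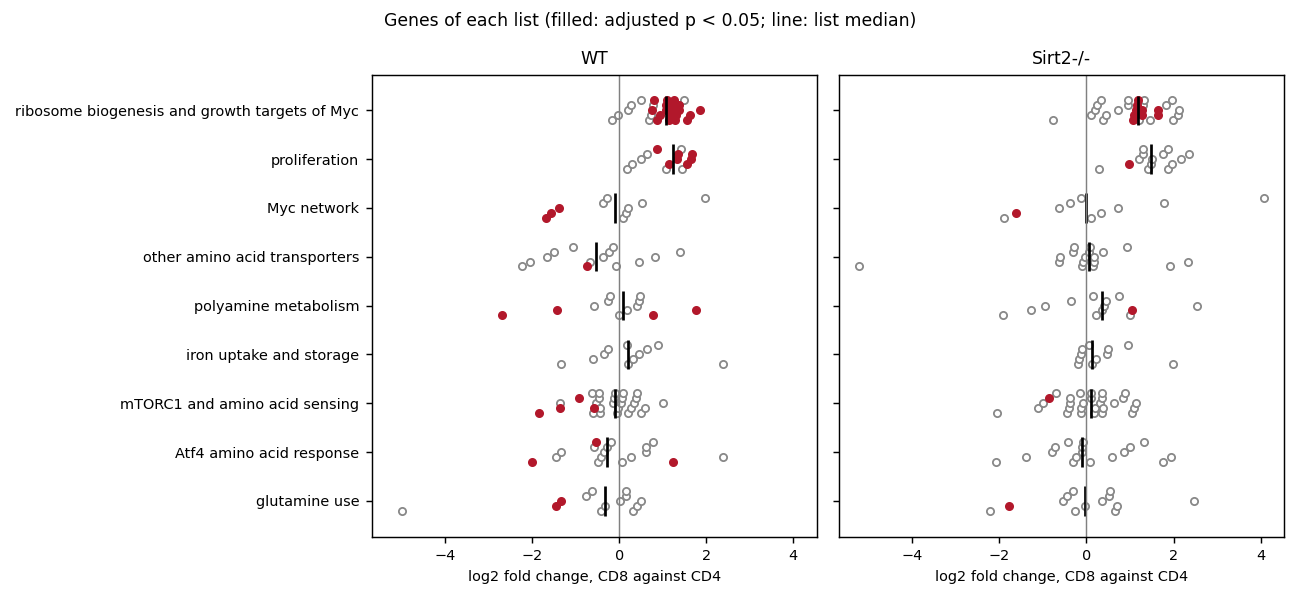
Log2 fold change of CD8+ against CD4+ TILs (horizontal axis) of each gene tested in 9 lists, in WT (left) and Sirt2-/- (right) mice; filled points have an adjusted p under 0.05 and lines are list medians. Ribosome biogenesis and proliferation genes lie mostly above 0, with medians of 1.08 and 1.23 in WT, and the other lists lie on both sides of 0.

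The genes most like Myc, by Pearson's r of log2 CPM over the 16 libraries among 8309 genes with a mean of at least 10 CPM, were Tsr1 and Nat10, which act in ribosome assembly, Cdk4, Prpf31 and Ppp1r14b, with r of 0.99, 0.98, 0.98, 0.97 and 0.97. Cdk4 is also 1 of the 28 growth genes above. These values describe libraries that share cell type and detection, and within the 8 CD8+ libraries r was 0.84, 0.83, 0.52, 0.55 and 0.37. For Slc7a5 they were Mrpl12, Txn2, Rnf219, Slc16a1 and Lrpprc, with r of 0.99 each, and 0.90 to 0.95 over the 13 libraries with more genes detected. For Slc38a2 they were Tgs1, Clpx, Rragc, Phf11a and Isg15, with r of 0.89 to 0.92 over 16 libraries but −0.23 to 0.67 over those 13. The r values for Slc38a2 thus depended on the 3 low-detection libraries. Within CD8+ libraries, where the spread of Myc was small, Myc and Slc7a5 had r = 0.20 over 8 libraries (Spearman's rho 0.43), and in CD4+ libraries r = 0.93 over 8 (rho 0.38) and 0.79 over the 6 with more genes detected.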

How the data were processed

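Total RNA of CD4+ and CD8+ TILs was sequenced after ribosomal RNA depletion, and the authors deposited raw counts per gene. The labels' processing notes name STAR, HTSeq and mm10, with no versions. All 55450 identifiers matched GENCODE M21. Counts were tested in edgeR 4.0.16 (R 4.3.3) by the robust quasi-likelihood test after TMM scaling and edgeR's filter on low counts, with Benjamini–Hochberg adjustment over all genes tested and a call at an adjusted p under 0.05. The SE was the absolute log2 fold change divided by the square root of F. Each comparison used its own 8 libraries, and the difference between genotype effects all 16. Alternatives used DESeq2 1.42.0, limma-voom (3.58.1) with quality weights, upper-quartile scaling, other filters, 1 model of 16 libraries, a replicate block, single libraries left out, and the 3 libraries with under 15000 genes detected left out. Tests were tried on simulated data. Ratios used exact permutation tests. Levels between genes were divided by union exon length. The labels do not tie libraries to animals, so p-values and SEs measure the spread between these libraries, counting error included. All 10 genes are named, and of each other list at most 3 called genes with the largest change, plus counts of 5 or fewer under alternatives, whose genes were chosen after their values were seen. Beyond these, the WT values of Eif5a and Pcna are given, since both genotypes called them. The members and lists were chosen with earlier results of these data known.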

Additional observations from a re-analysis of the deposited data

Results flagged for a closer look

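Of 48 groups of 4 values examined, 5 held a value far from the other 3 by Dixon's criterion, which chance gives in about 1 of 20 groups. Myc in WT CD8+ replicate 4 was at 153 CPM, beside 134 to 137 CPM in the others. Slc1a5 in WT CD4+ replicate 1 was at 94.8 CPM, beside 62.7 to 66.7 CPM. Slc7a6 in Sirt2-/- CD4+ replicate 4 was at 0 CPM, beside 21.2 to 22.2 CPM. Tfrc in Sirt2-/- CD8+ replicate 4 was at 84.1 CPM, beside 45.2 to 46.2 CPM. The log2 ratio of Slc7a5 to Slc3a2 in Sirt2-/- CD4+ replicate 4 was −11.55, beside −1.90 to −1.57, and its size depends on the 0.5 added to each count. The replicates 1 of WT CD4+ and 4 of Sirt2-/- CD4+ are among the libraries with few genes detected, and those of Myc and Tfrc are not.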

How the results depend on the processing

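In WT TILs, 7 of the 10 genes were called between cell types by limma-voom, 5 with a replicate block and 2 to 6 when single libraries were left out, beside 4. In Sirt2-/- TILs, 4 were called by DESeq2, 6 by limma-voom, 4 of 8 tested with at least 10 counts in every library, 6 without the low-detection library, 0 with a replicate block and 0 to 6 when single libraries were left out, beside 2. Without the low-detection libraries, Myc, Slc7a1 and Odc1 were called between cell types in both genotypes. In both genotype comparisons and in the difference between them, 0 were called under every alternative run. Over all genes, DESeq2 called 2651, limma-voom 5481 and the fit without low-detection libraries 4394 between cell types in WT, beside 1765, and 1339, 4474 and 4250 in Sirt2-/- TILs, beside 354. In the genotype comparisons the fit without them called 6 genes in CD4+ and 7 in CD8+ TILs, where no filter gave 5 and the replicate block 4, beside 1. The labels do not say what a replicate number marks. Between cell types in WT, deviations of same-numbered libraries correlated at 0.067 to 0.119, and 8 of 8 libraries correlated best with their own number, a hint of pairing from the data alone. In Sirt2-/- TILs the correlations were −0.014 to 0.133, with 3 of 8, and between genotypes −0.072 to 0.077. With the replicate block 1619 genes were called in WT, among them Slc7a5 (1.53 ± 0.27, adjusted p = 0.022), and 108 in Sirt2-/- TILs, where Slc7a1 and Odc1 were at 1.17 ± 0.19 and −1.42 ± 0.22 (adjusted p = 0.074 and 0.068). The model of all 16 libraries called 811 and 781 genes, and at least 10 counts in every library gave 907 in Sirt2-/- TILs.

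Uncalled values near 0 changed sign. With limma-voom, the genotype value became 0.095 for Slc38a1 in CD4+ TILs and 0.014 for Slc1a5, −0.056 for Slc38a2 and −0.015 for Slc7a6 in CD8+ TILs, Slc3a2 was −0.086 between cell types in Sirt2-/- TILs, and the difference between genotype effects was −0.14 for Slc7a5, −0.18 for Slc38a1, −0.047 for Slc38a2 and −0.12 for Tfrc. Without low-detection libraries, the genotype value was 0.0087 for Slc38a1 and 0.041 for Slc38a2 in CD4+ TILs and 0.021 for Slc1a5, −0.086 for Slc38a2 and −0.035 for Slc7a6 in CD8+ TILs. Slc3a2 and Slc38a2 were then −0.051 and −0.0082 between cell types in Sirt2-/- TILs, and the difference between genotype effects was −0.095 for Slc38a1, −0.13 for Slc38a2 and −0.076 for Tfrc. That difference for Slc38a1 was −0.062 with upper-quartile scaling, −0.0037 with no filter and −0.0059 with the replicate block, which gave 0.044 for Odc1.

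Leaving out single libraries moved the genotype value in CD4+ TILs from −0.081 to 0.072 for Slc38a1 and from −0.22 to 0.16 for Slc38a2. In CD8+ TILs it ran from −0.21 to 0.094 for Slc7a5, −0.082 to 0.021 for Slc1a5, −0.095 to 0.051 for Slc38a1, −0.086 to 0.15 for Slc38a2, −0.11 to 0.0037 for Slc7a1 and −0.035 to 0.14 for Slc7a6. Between cell types it ran from −0.044 to 0.24 for Slc38a2 and −0.15 to 0.18 for Slc7a6 in WT, and from −0.051 to 0.41 for Slc3a2 and −0.0082 to 0.36 for Slc38a2 in Sirt2-/- TILs. The difference between genotype effects ran from −0.085 to 0.077 for Slc38a1, −0.095 to 0.28 for Slc38a2, −0.23 to 0.30 for Tfrc and −0.31 to 0.13 for Odc1.

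The log2 ratio of Slc7a5 to Slc3a2 differed between genotypes in CD4+ TILs by −3.10 to 0.23 without single libraries, positive without Sirt2-/- CD4+ replicate 4. Without the low-detection libraries the difference was −0.085. Between cell types it was 1.65 in WT without low-detection libraries, where 3 against 3 cannot reach p under 0.05, and 1.51 to 4.84 in Sirt2-/- TILs. The ratio of Slc38a1 to Slc38a2 differed between genotypes in CD4+ TILs by −0.019 without low-detection libraries and by −0.23 to 0.31 without single libraries. Between cell types it was 0.30 to 0.64 in WT, and 9.98e-06 to 0.54 in Sirt2-/- TILs, with 0.54 without the low-detection library. The cause of these changes was not tested. Slc7a5 and Slc7a6 had 0 counts in Sirt2-/- CD4+ replicate 4 alone, which has the highest total count of the 16 libraries and the fewest genes detected. The reason for these 0 counts was not tested.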
